A study of Mus musculus with 17 samples.

Results

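The adult globin genes Hba-a1, Hba-a2, Hbb-bs and Hbb-bt and the heme synthesis gene Alas2 are described here in mouse choroid plexus over a course of DSS (dextran sodium sulfate), which damages the colon and brings on colitis. These 5 genes are the rows whose Ensembl identifiers carry those symbols in GENCODE, out of 55487 genes in the table, and all 5 were among the 16851 genes with enough reads to be tested. RNA was sequenced from whole plexus dissected from the lateral ventricles of C57BL/6 animals. There were 5 control libraries (CTRL) and 4 in each treated group: T1 had received DSS for 1 day and T3 for 3 days, while T5 had received it for 3 days followed by 2 days on water. All groups share the strain and tissue, and the labels name no other allele or agent. Age, what the controls drank, and whether the vessels were rinsed before dissection are not stated in the labels. The labels do not say that libraries of a group came from separate animals, so p-values measure the spread between libraries, which may be technical.

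Hemoglobin is a tetramer of alpha chains and beta chains, each holding a heme group, and is made by red cell precursors. Hba-a1 and Hba-a2 are neighbouring copies of the adult alpha globin gene, and Hbb-bs and Hbb-bt are neighbouring copies of the adult beta globin gene in C57BL/6 mice. Alas2 encodes the erythroid form of 5-aminolevulinate synthase, the enzyme of the first step of heme synthesis, whereas Alas1 encodes the form used by other tissues. The choroid plexus is a sheet of epithelium over capillaries that secretes cerebrospinal fluid, and circulating young red cells still carry globin RNA.

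On GRCm38, Hba-a1 (ENSMUSG00000069919) lies at chr11:32283511-32284465 on the plus strand and Hba-a2 (ENSMUSG00000069917) at chr11:32296489-32297298 on the plus strand. Hbb-bs (ENSMUSG00000052305) lies at chr7:103826534-103828096 on the minus strand and Hbb-bt (ENSMUSG00000073940) at chr7:103812524-103813996 on the minus strand. Alas2 (ENSMUSG00000025270) lies at chrX:150547375-150570638 on the plus strand. The annotation lists each of them as a protein-coding gene.

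The sequences of the copies decide how far their reads can be told apart. The coding sequences of Hba-a1 and Hba-a2, 429 bases each, differ at 1 base, and those of Hbb-bs and Hbb-bt, 444 bases each, also differ at 1 base, an identity of 99.8% in either pair. Counted from 1 at the A of the start codon, the difference is at base 381 in the alpha pair and at base 417 in the beta pair. The stretch around it is shown from the GENCODE transcripts, 5′ to 3′, with the differing base in capitals.
Hba-a1: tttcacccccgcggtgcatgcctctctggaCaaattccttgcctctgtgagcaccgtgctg
Hba-a2: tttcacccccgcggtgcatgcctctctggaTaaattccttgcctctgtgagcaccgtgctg
Hbb-bs: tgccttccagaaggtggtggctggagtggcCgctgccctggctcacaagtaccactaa
Hbb-bt: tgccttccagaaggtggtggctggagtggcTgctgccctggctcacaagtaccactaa
Outside the coding part the copies differ more. Of all runs of 50 bases in the joined exons, 72.3% of those of Hba-a1 also occur in Hba-a2, and 89.3% of those of Hba-a2 occur in Hba-a1. In the beta pair the shares are 53.2% of Hbb-bs and 58.3% of Hbb-bt. How the counting treated reads that match both copies is not given, so the level of a single copy is uncertain, and no run of 50 bases is shared between Hba-a1 and Hbb-bs.

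Promoters of the members are shown as well. The 250 bases before the RefSeq start site (build GRCm38.p6) were found for all 5 genes and searched on both strands for GATAA (the core of GATA factor sites), CACCC (bound by Krueppel-like factors) and CCAAT (a common promoter box). ATAAA was searched as well, and so was ATATAA (both forms of the TATA box). Matches are in capitals, and a match on the opposite strand appears as its reverse complement. Each sequence is written 5′ to 3′ on the strand of the gene. They lie at chr11:32283422-32283671 (plus strand, Hba-a1), chr7:103827929-103828178 (minus strand, Hbb-bs) and chrX:150547167-150547416 (plus strand, Alas2). GENCODE starts these genes farther upstream than RefSeq, so the windows reach into the gene spans given above.
Hba-a1: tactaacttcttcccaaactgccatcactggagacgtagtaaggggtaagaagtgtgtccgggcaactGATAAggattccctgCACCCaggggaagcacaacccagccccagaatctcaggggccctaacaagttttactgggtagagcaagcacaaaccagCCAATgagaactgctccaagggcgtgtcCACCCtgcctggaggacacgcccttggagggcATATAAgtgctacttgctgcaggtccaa
Hbb-bs: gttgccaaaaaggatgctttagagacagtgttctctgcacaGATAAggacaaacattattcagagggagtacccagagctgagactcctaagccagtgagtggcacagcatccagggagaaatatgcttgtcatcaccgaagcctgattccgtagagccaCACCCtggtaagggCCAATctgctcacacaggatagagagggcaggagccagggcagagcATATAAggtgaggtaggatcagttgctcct
Alas2: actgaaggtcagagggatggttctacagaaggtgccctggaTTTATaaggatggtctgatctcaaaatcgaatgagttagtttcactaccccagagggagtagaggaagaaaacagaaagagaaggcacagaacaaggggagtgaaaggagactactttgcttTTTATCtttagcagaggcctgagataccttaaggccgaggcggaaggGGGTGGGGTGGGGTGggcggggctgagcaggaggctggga
GATAA was present in all 5 members and in 22.6% of 32851 mouse promoters of the same length. CACCC was also present in all 5, against 52% of promoters. CCAAT was present in the 4 globin genes (33.8% of promoters), ATATAA in the same 4 (9.1%), and ATAAA, which overlaps ATATAA where the A run is longer, in Hbb-bt and Alas2 (37.3%). In the Alas2 window the GATAA match overlaps an ATAAA match, and the 3 CACCC matches touch. The alpha promoters share an identical run of 247 of 250 bases, so they are not independent examples. A match is a description of these letters and not a sign of binding.

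The globin genes made up a small share of each library. The 4 adult globin genes summed to between 0.0389 and 0.202% of all reads counted per library, and library totals ran from 8875921 to 26839417 counts. Reads that match both copies of a pair may be missing from this share, since their treatment is not given. Each member had at least 165 reads in every library, so counting error was small beside the spread between libraries. Per kilobase of exon, Hbb-bs had the highest median over the 17 libraries, 652 RPKM (the library-scaled count divided by the length of the joined exons in kilobases). Hba-a1 followed with a median of 206 RPKM, Hba-a2 with 181, Hbb-bt with 163 and Alas2 with 16.03. Levels in the rest of the text are CPM (counts divided by the library total), which are compared for 1 gene across libraries only.

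Hbb-bs, the beta globin copy with the most reads, was lowest in T3 and highest in T5. In CTRL replicates 1 to 5 its level was 462, 500.99, 237, 705 and 559 CPM. In T1 replicates 1 to 4 it was 680, 243, 516 and 364 CPM. In T3 it was 315, 227, 270 and 448 CPM, and in T5 it was 1153, 758, 935 and 503 CPM. All 4 T5 libraries were above all 4 T3 libraries, and T5 replicates 1, 2 and 3 were above every control in CPM. With library totals scaled by TMM, the normalization of the fit, T5 replicate 2 (744) was below CTRL replicate 4 (769). The T1 libraries spanned nearly the range of the controls. Group means were 493 ± 170 CPM in CTRL (SD, n = 5), 451 ± 189 in T1 (n = 4), 315 ± 95.7 in T3 (n = 4) and 837 ± 275 in T5 (n = 4).

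Hbb-bt, the other beta copy, followed the same order at a lower level. Its level was 102, 114, 49.5, 162 and 118 CPM in CTRL, and 158, 54.1, 129 and 85.0 CPM in T1. It was 66.9, 48.8, 56.7 and 120 CPM in T3, and 259, 153, 205 and 100.1 CPM in T5. T5 replicates 1 and 3 were above every control. T5 replicate 4 was below T3 replicate 4, so T3 and T5 overlapped in CPM through that pair of libraries. With TMM-scaled totals, T5 replicate 4 (114) was above T3 replicate 4 (104).

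Hba-a1, the alpha copy with more reads, had 167, 145, 58.3, 224 and 170 CPM in CTRL. In T1 it had 179, 92.1, 185 and 137 CPM. In T3 it had 93.4, 68.8, 88.8 and 168 CPM, and in T5 it had 350, 227, 296 and 107 CPM. CTRL replicate 3 was the lowest of the 17 libraries and T5 replicate 1 the highest, 6.01-fold apart. T5 replicates 1, 2 and 3 were above every library of the other groups in CPM, and T5 replicate 4 was below T3 replicate 4. With TMM-scaled totals, T5 replicate 2 (222) was below CTRL replicate 4 (244).

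Hba-a2, the second alpha copy, had 134, 111, 44.0, 178 and 125 CPM in CTRL and 140, 66.7, 143 and 96.7 CPM in T1. It had 65.0, 51.3, 63.5 and 121 CPM in T3 and 253, 180, 224 and 78.5 CPM in T5. The same libraries were high and low as for Hba-a1. Means were 118 ± 48.6 CPM in CTRL (SD, n = 5), 112 ± 36.7 in T1, 75.2 ± 31.1 in T3 and 184 ± 76.4 in T5 (n = 4 each).

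Alas2, the erythroid heme synthesis enzyme, had 36.1, 38.5, 15.1, 44.9 and 38.1 CPM in CTRL. In T1 it had 40.5, 18.5, 48.4 and 39.3 CPM. In T3 it had 15.2, 15.5, 14.5 and 40.2 CPM, and in T5 it had 58.7, 46.4, 63.9 and 21.1 CPM. In T3, replicates 1 to 3 lay together near the lowest control, and replicate 4 lay among the controls. The group means were 34.5 ± 11.4 CPM in CTRL (SD, n = 5), 36.7 ± 12.8 in T1, 21.3 ± 12.6 in T3 and 47.5 ± 19.1 in T5 (n = 4 each). The order of means was T3, CTRL, T1, T5 for Alas2 and T3, T1, CTRL, T5 for the 4 globin genes. In both orders CTRL and T1 are neighbours whose means differed by less than their SDs.

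**Figure D1:**
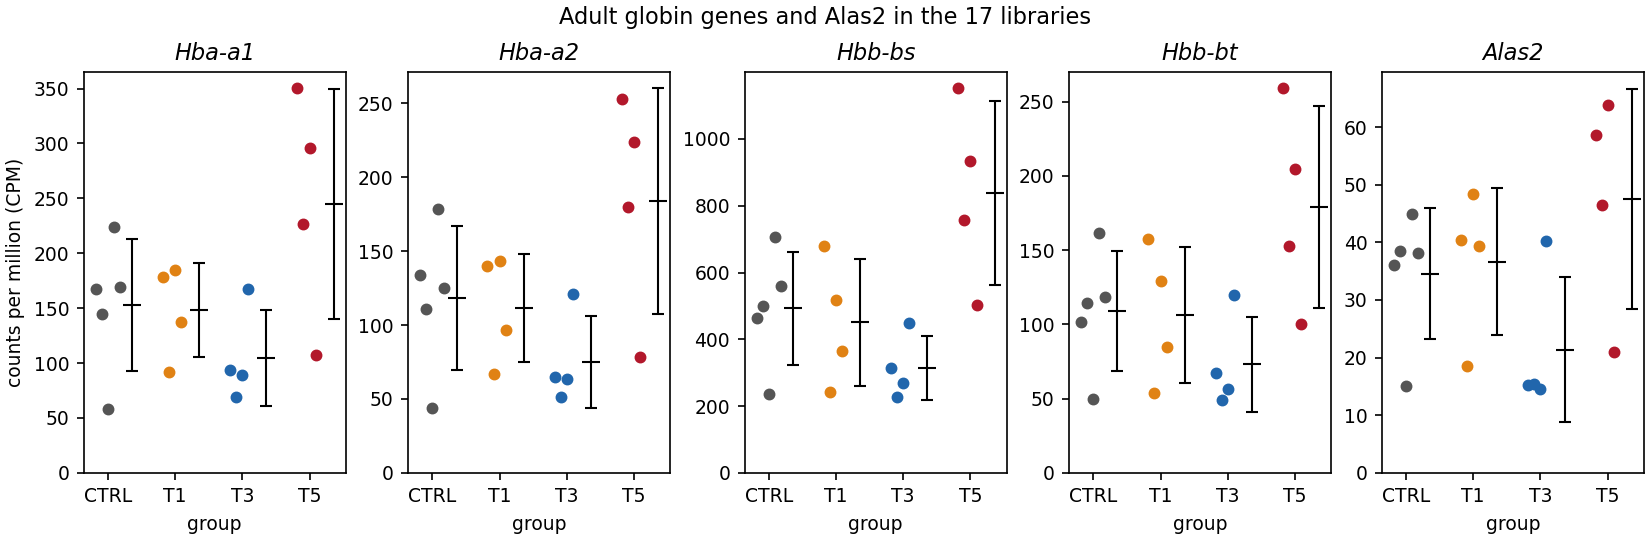
Level of Hba-a1, Hba-a2, Hbb-bs, Hbb-bt and Alas2 in CPM (vertical axis from 0) in the libraries of CTRL (n = 5), T1, T3 and T5 (n = 4 each). Points are libraries in the order of replicate number, and bars beside them give the mean and SD. T5 replicate 4 and CTRL replicate 3 lie low, and T3 replicate 4 lies high, in all 5 panels.

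Libraries of 1 group differed from each other more in these genes than in most genes of like level. The SD of log2 CPM within groups was 0.56 to 0.64 for the 5 members. Among the 500 tested genes nearest in level to each member, the median SD was 0.21 to 0.24, and the members stood at percentiles 97.6 to 99.6. In bulk tissue, fewer cells of a type and less RNA per cell cannot be told apart.

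The largest difference between groups was between T5 and T3, where all 5 members had higher fitted values after the water days in edgeR's quasi-likelihood fit over the whole table. None passed the adjusted threshold of 0.05. Fitted log2 fold changes ± SE were 1.49 ± 0.37 for Hbb-bs, 1.38 ± 0.41 for Hbb-bt, 1.37 ± 0.41 for Hba-a2, 1.31 ± 0.40 for Hba-a1 and 1.25 ± 0.40 for Alas2, a fold of 2.37 to 2.80. The median over the 5 was 1.37, against 0.0066 over all tested genes. Adjusted p-values by edgeR were 0.267 to 0.346, and this test called 0 of 16851 genes (0%) in the comparison, of which 1764 had an unadjusted p under 0.05. At an unadjusted p under 0.05, all 5 members were higher, as were 4.31% of tested genes. Hbb-bs was the only member whose CPM did not overlap between T3 and T5, and 8.88% of tested genes did not overlap in that comparison. On the TMM scale Hbb-bt did not overlap either, with T3 replicate 4 at 104 and T5 replicate 4 at 114. The share of tested genes was taken on plain CPM only.

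With DESeq2, Hbb-bs (adjusted p = 0.0146), Hbb-bt (0.0458) and Hba-a2 (0.0477) passed the threshold between T5 and T3, with fold changes like those of edgeR. Hba-a1 (0.0538) and Alas2 (0.084) did not. DESeq2 called 84 genes, 0.498% of those tested, in this comparison. limma voom with quality weights called 0 genes and gave the members adjusted p-values of 0.168 to 0.177. The call for the globin genes between T3 and T5 thus differed between tools.

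Libraries that stand apart touch this comparison. T3 replicate 4 and T1 replicates 2, 3 and 4 carry the highest running numbers in the titles, 28 and above. The labels do not call them a batch. Without these 4 libraries the T5 to T3 log2 fold change was 1.61 ± 0.35 for Hbb-bs and 1.63 ± 0.39 for Alas2, with adjusted p = 0.26 by edgeR for both. With a term for those libraries it was 1.36 ± 0.41 and 1.37 ± 0.45. Without T5 replicate 4 the change of Hbb-bs was 1.64, and without T5 replicate 1 it was 1.28. Markers of brain tissue next to the plexus moved the same way. All 8 oligodendrocyte markers (myelin genes such as Mbp and Mog) had higher fitted values in T5 than in T3, with a median log2 fold change of 3.52, and 6 had an unadjusted p under 0.05. Their summed level was 164 to 1138 CPM in T3 and 425 to 16325 CPM in T5, and 0 of the 8 were at 0 in all libraries. The highest sum was that of T5 replicate 3. T5 replicates 1, 2 and 4, at 425, 781 and 953 CPM, were below T3 replicate 4 (1138 CPM). Of 7 astrocyte markers 6 had higher fitted values (median 1.20; summed level 262 to 857 CPM in T3 and 279 to 1268 CPM in T5), as did 8 of 8 neuron markers (median 0.81; 22.7 to 502 CPM and 51.7 to 837 CPM). The neuron sum was 837 CPM in T5 replicate 2, and 51.7, 127 and 83.4 CPM in T5 replicates 1, 3 and 4. With a brain marker score as a covariate the T5 to T3 change was 1.43 ± 0.39 for Hbb-bs and 1.02 ± 0.38 for Alas2.

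**Figure D2:**
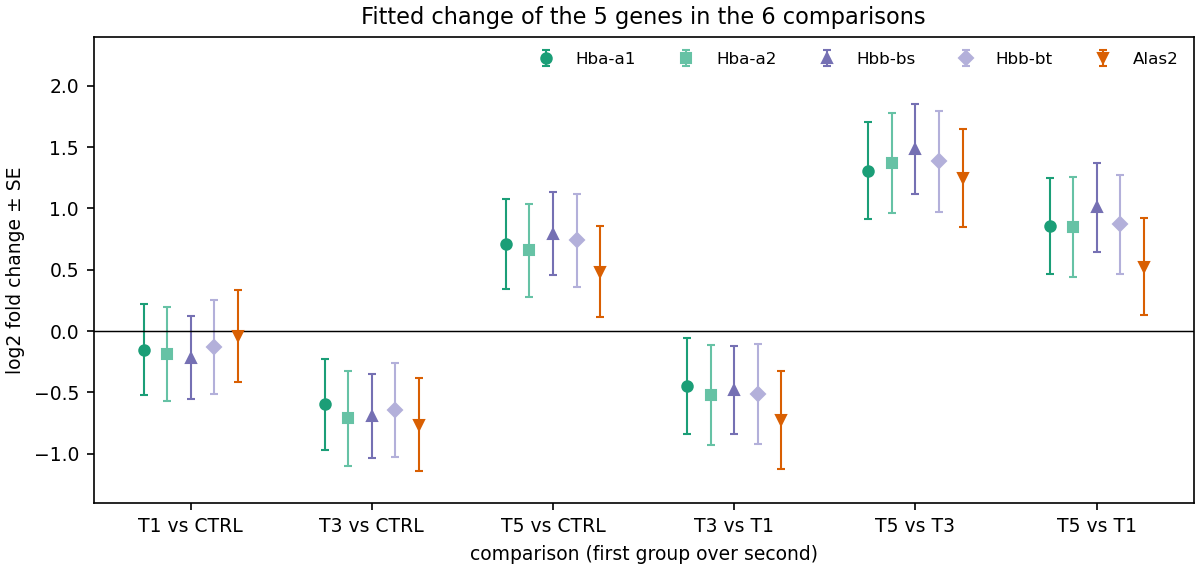
Fitted log2 fold change with its SE (edgeR, all 17 libraries) of the 5 genes in the 6 comparisons, first group over second. The values lie near 0 for T1 against CTRL, between -0.76 and -0.60 for T3 against CTRL, and between 1.25 and 1.49 for T5 against T3.

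Against the controls no member passed edgeR's adjusted threshold in any group. After 1 day of DSS the log2 fold changes were -0.22 to -0.04, with adjusted p = 0.728 to 0.959 by edgeR, and the test called 0 genes (0%), with 3553 at an unadjusted p under 0.05. DESeq2 called 826 genes (4.9%) and voom 4084 (24.2%) in T1 against CTRL, and 0 of the 5 members by either. After 3 days all 5 fitted values were negative, -0.76 for Alas2 to -0.60 for Hba-a1, with adjusted p = 0.911 for each by edgeR. In that comparison edgeR called 0% of genes, and at an unadjusted p under 0.05 no member was lower, against 1.77% of tested genes. DESeq2 and voom each had 3 of the 5 lower at an unadjusted p under 0.05. In either direction 994 and 1142 of 16851 genes were at that level. Both tools called 0 members, with adjusted p-values of 0.704 to 0.860. The median of the members was -0.69, and the median of all tested genes was 0.017. Without T3 replicate 4 the value of Alas2 was -1.15. Without CTRL replicate 4, the control with the highest levels, the values ran from -0.62 for Alas2 to -0.38 for Hba-a1, with Hbb-bt at -0.42 and Hba-a2 at -0.47.

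After the water days all 5 fitted values were above those of the controls, 0.49 for Alas2 to 0.79 for Hbb-bs. Adjusted p-values by edgeR were 0.614 to 0.811, with 0 genes (0%) called. Hbb-bs (0.79 ± 0.34) had an unadjusted p of 0.0324 in edgeR, and 3.89% of tested genes were higher at that level. DESeq2 called 16 genes (0.0949%) in T5 against CTRL and voom called none, with no member among them. In CPM, 3 of 4 T5 libraries were above all 5 controls for each of Hba-a1, Hba-a2, Hbb-bs and Alas2, and 2 of 4 for Hbb-bt. T5 replicate 4 was below the highest control for every member, and T5 replicate 2 was so for Hbb-bt. On the TMM scale of the fit, T5 replicate 2 was below CTRL replicate 4 for the other genes too. The values were 222 against 244 for Hba-a1, 176 against 194 for Hba-a2, 744 against 769 for Hbb-bs and 45.5 against 48.9 for Alas2. Without T5 replicate 1 the T5 to CTRL change was 0.47 for Hba-a1, 0.45 for Hba-a2, 0.49 for Hbb-bt, 0.58 for Hbb-bs and 0.35 for Alas2. Alas2 was 0.30 without CTRL replicate 3 and 0.25 with the brain covariate, and Hba-a2 was 0.45 without CTRL replicate 3.

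Fitted values were also higher in T5 than in T1. The log2 fold change was 1.01 ± 0.36 for Hbb-bs (adjusted p = 0.095 by edgeR), 0.87 ± 0.41 for Hbb-bt, 0.86 ± 0.39 for Hba-a1, 0.85 ± 0.41 for Hba-a2 and 0.52 ± 0.39 for Alas2. edgeR called 677 genes (4.02%) in this comparison and 0 members, and 3 members were higher at an unadjusted p under 0.05, as were 13.1% of tested genes. Hbb-bs was called by DESeq2 (adjusted p = 0.0324), which called 12.8% of genes, and by voom (adjusted p = 0.0304), which called 22.1%. Without T1 replicate 1, edgeR also called Hbb-bs (adjusted p = 0.0133) and Hbb-bt (0.0498), among 3169 genes called of 17372 tested. Without the 4 libraries with title numbers of 28 and above, which leaves T1 with replicate 1 alone, assumed to vary like the other groups, the T5 to T1 change was 0.24 ± 0.49 for Hbb-bs, 0.13 for Hbb-bt, 0.40 for Hba-a1, 0.33 for Hba-a2 and 0.17 for Alas2. The T3 to T1 log2 fold changes were -0.72 for Alas2 to -0.45 for Hba-a1, with adjusted p = 0.579 to 0.673 by edgeR and 0% of genes called. These values turned on the T1 libraries. Without T1 replicate 1 Hbb-bs was -0.079, Hbb-bt -0.14, Hba-a1 -0.24, Hba-a2 -0.29 and Alas2 -0.57, and without the 4 libraries with higher title numbers the 5 values ran from -1.49 for Hbb-bt to -1.13 for Hba-a1.

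The members varied together from library to library. Across the 17 libraries, Hba-a1 correlated with Hbb-bs on the log2 CPM scale with Pearson r = 0.952 (permutation p = 1e-05, adjusted over 14 relations 7e-05) and with Spearman's rho = 0.941 (permutation p = 1e-05, adjusted 7e-05). Here 1e-05 is the smallest p the draws allow. These 2 genes share no run of 50 bases. Alas2 correlated with Hbb-bs with r = 0.881 (permutation p = 2e-05, adjusted 9.33e-05) and rho = 0.88 (permutation p = 1e-05, adjusted 7e-05). Leaving out T5 replicates 1 and 3, the libraries farthest from the median of Hbb-bs, gave r = 0.921 for Hba-a1 and 0.835 for Alas2. Within the 13 libraries with title numbers below 28, r was 0.969 and 0.941. With the group means removed, r was 0.936 and 0.866. The 4 libraries with the higher numbers are too few for a value of their own.

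**Figure D3:**
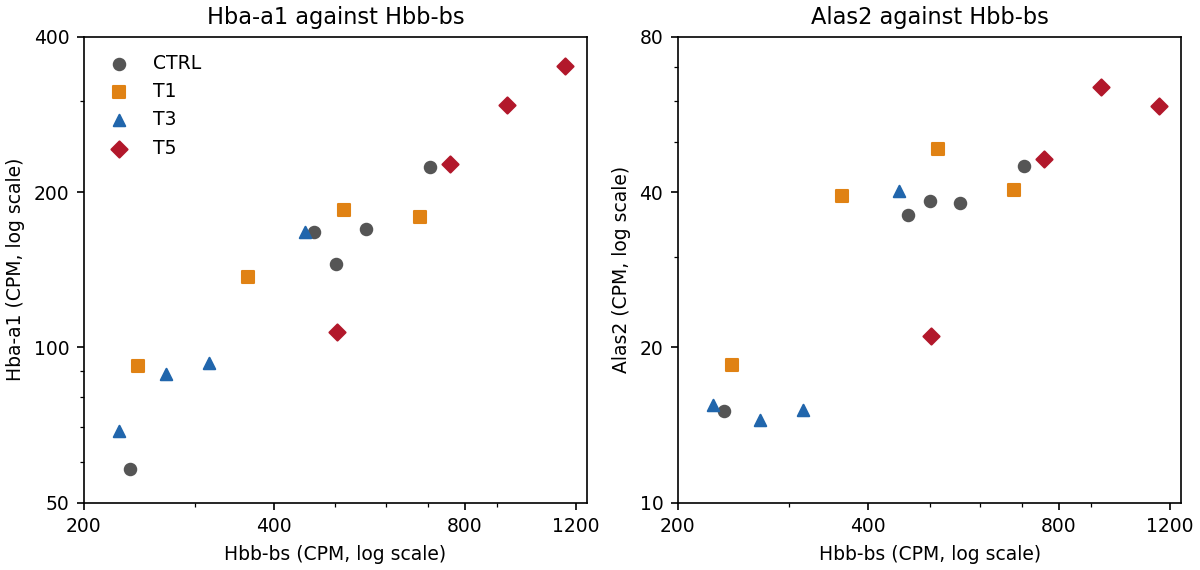
Hba-a1 (left) and Alas2 (right) against Hbb-bs in the 17 libraries, in CPM on log axes, with symbols and colours for the 4 groups. The points of both panels follow a rising line (r = 0.952 and 0.881, computed on TMM-scaled log2 CPM), and T5 replicate 4 lies below it in both.

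The balance of the chains varied less than their level. Summed over copies, alpha reads per kilobase were 0.314 to 0.545 of beta reads per kilobase, with a median of 0.456 and a CV of 14.0% over the 17 libraries, against a CV of 49.1% for the summed level. The mean ratio was 0.449 ± 0.0666 in CTRL (SD, n = 5), 0.493 ± 0.0713 in T1, 0.463 ± 0.0407 in T3 and 0.417 ± 0.0699 in T5 (n = 4 each), and the groups overlapped. T5 replicate 4 had the lowest ratio and CTRL replicate 1 the highest. Hba-a1 held 55.5 to 59.0% of the reads assigned to the alpha pair, and Hbb-bs held 78.9 to 83.4% of those assigned to the beta pair. Alas2 per kilobase was 0.837 to 1.80% of the summed globin reads per kilobase. The ratio and all these shares rest on how reads common to both copies were counted, and summing does not recover reads that were dropped. Shared runs of 50 bases made up 72.3 and 89.3% of the alpha copies and 53.2 and 58.3% of the beta copies. The height of the alpha to beta ratio is therefore uncertain.

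**Figure D4:**
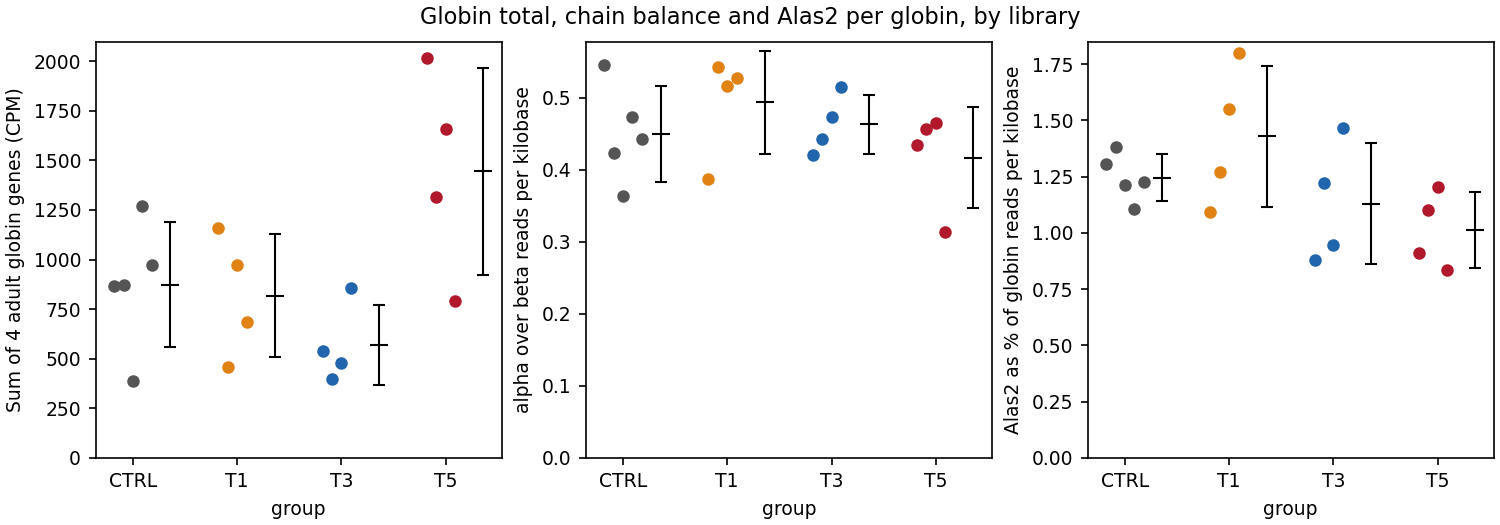
Per library, the summed level of the 4 adult globin genes in CPM (left), alpha over beta reads per kilobase of exon (middle), and Alas2 as a percentage of globin reads per kilobase (right), with mean and SD beside each group. The sum spans 389 to 2015 CPM, whereas the ratio stays between 0.314 and 0.545.

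Other globin genes were scarce. Hbb-bh1, an embryonic beta-like gene, and its neighbours Hbb-bh0 and Hbb-bh3 had 0 reads among 307766812 in the 17 libraries, which allows up to 0.00975 CPM each over all libraries, for counting error only. Hba-x, the embryonic zeta chain, had 1 read and Hbb-y, the embryonic epsilon chain, had 14. Hbq1a had 49 reads and Hbq1b 41 in total. Of the globins of other cells, Mb (myoglobin), Ngb (neuroglobin) and Cygb (cytoglobin) were tested. Cygb, a globin of fibroblasts and other stromal cells, had a T5 to T3 log2 fold change of 0.92 ± 0.27 (adjusted p = 0.322 by edgeR).

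Of the 8 other enzymes of heme synthesis, which are made in all cells, 7 spanned a narrower range over the libraries than Alas2 did. Alas1, the form of the first enzyme outside red cells, had a median of 38.0 RPKM and differed 1.36-fold between its highest and lowest library, whereas Alas2 differed 4.41-fold around a median of 16.03 RPKM. Alas1 per kilobase was 1.34 to 6.83 times Alas2, and was above Alas2 in all 17 libraries. Of the 8 enzymes other than Alas2, edgeR called 0 in every comparison except T5 against T1, where Ppox (protoporphyrinogen oxidase) fell by 0.70 ± 0.16 (adjusted p = 0.0327, edgeR). Ppox was 44.1 ± 12.7 CPM in T1 and 23.7 ± 4.18 CPM in T5 (SD, n = 4 each). That comparison called 4.02% of all tested genes, and 0 genes with a term for title numbers of 28 and above or without those libraries, which include 3 of the 4 T1 libraries. In T5 against T3 the median of the 8 was 0.037, with 4 higher and 4 lower.

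Single enzymes differed in how far they varied. Alad, which joins 2 molecules of aminolevulinate, was 106 ± 10.2 CPM in CTRL (SD, n = 5) and 74.2 ± 1.45 CPM in T1 (n = 4), a log2 fold change of -0.63 ± 0.16 (adjusted p = 0.13, edgeR). Fech (ferrochelatase, which inserts iron) differed 1.34-fold between its highest and lowest library, Urod 1.54-fold, Uros 1.95-fold and Ppox 2.85-fold. Cpox differed 6.13-fold around a median of 2.54 RPKM, and its T5 to T3 change was 0.87 ± 0.40 (adjusted p = 0.464, edgeR). The mean log2 CPM of the 8 enzymes correlated with Hbb-bs with r = 0.154 (permutation p = 0.557, adjusted 0.65) and rho = 0.132 (permutation p = 0.613) over the 17 libraries, without the 2 farthest libraries r was -0.038, and in the 13 libraries with lower title numbers -0.044.

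**Figure D5:**
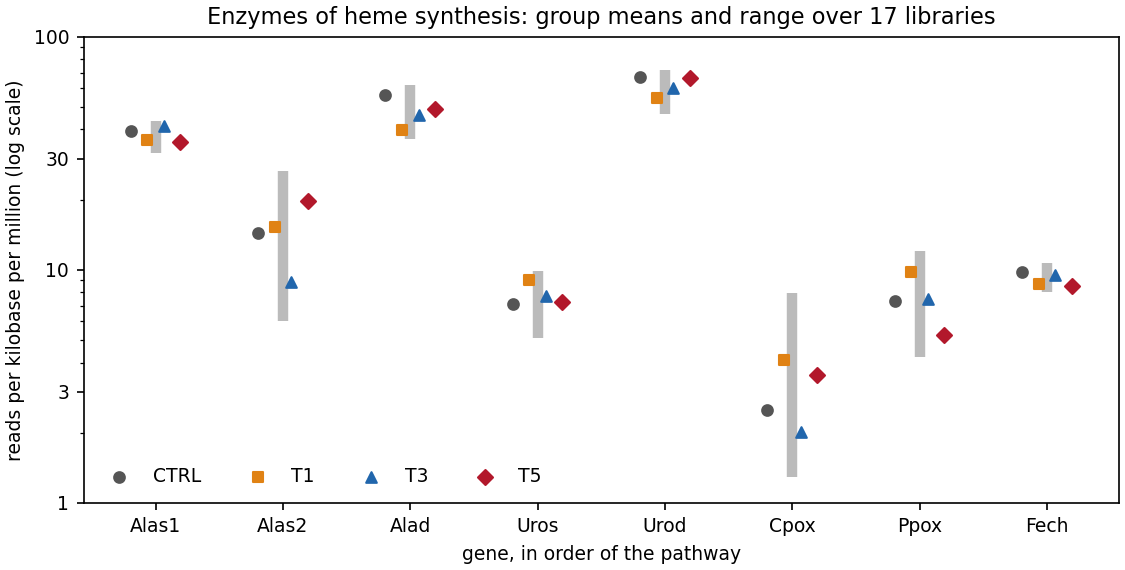
Level in RPKM (log axis) of 8 enzymes of heme synthesis, Alas2 among them, in pathway order. Symbols are group means (CTRL n = 5, others n = 4) and grey bars run from the lowest to the highest of the 17 libraries. Alas2 spans a 4.41-fold range, whereas Alas1 spans 1.36-fold.

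Of 14 genes of heme breakdown, export and scavenging, 13 were tested, and the calls were between T5 and T1. Hmox2, the constitutive heme oxygenase, rose by 0.53 ± 0.13 (adjusted p = 0.0384, edgeR), and Lrp1, a receptor for the complex of hemopexin with heme, fell by 1.17 ± 0.24 (adjusted p = 0.022, edgeR). Lrp1 was 123 ± 8.52 CPM in CTRL (SD, n = 5), 256 ± 116 CPM in T1 and 98.0 ± 16.9 CPM in T5 (n = 4 each). Hmox2 was 62.8 ± 4.83 CPM in CTRL, 49.4 ± 2.88 CPM in T1 and 64.3 ± 4.83 CPM in T5. For both genes the T1 mean lay farther from the control mean than the T5 mean did. Both calls, like that of Ppox, stand among 4.02% of tested genes called and are lost with the title number term or without those libraries. In T5 against T3 the median of the 13 was 0.13.

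Markers of red cells and of their precursors were mostly scarce beside the globins. Of 24 erythroid genes, 23 were found in the table and 9 tested, and edgeR called 0 in each of the 6 comparisons. Slc4a1, the anion exchanger of the red cell membrane, was 0.389 ± 0.258 CPM in CTRL (SD, n = 5) and 1.33 ± 0.743 CPM in T5 (n = 4), a log2 fold change of 1.77 ± 0.80 (adjusted p = 0.628, edgeR). Gata1, a master regulator of red cell precursors, had 18 reads in total and Hemgn 4. Bpgm, the red cell enzyme that makes the regulator of oxygen affinity, was 65.5 ± 9.99 CPM in T3 and 83.2 ± 19.5 CPM in T5, a change of 0.41 ± 0.14 (adjusted p = 0.361, edgeR). In T5 against T3, 6 of the 9 tested genes had higher fitted values and 3 lower, with a median of 0.41. The 3 were Klf1 (-0.41), a regulator of globin genes, Sptb (-0.22) and Ank1 (-0.06), parts of the red cell membrane skeleton. The summed level of the 23 genes was 111 to 162 CPM in T3 and 130 to 176 CPM in T5, most of it from Bpgm, Sptb and Tfrc.

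Markers of other blood cells, of the vessel wall, of the epithelium and of brain tissue were set beside the globins. The tested lymphocyte markers Ighm, Nkg7 and Cd79b had a mean log2 CPM that correlated with Hbb-bs with r = 0.881 (permutation p = 1e-05, adjusted 7e-05) and rho = 0.868 (permutation p = 5e-05, adjusted 0.000233). This mean rests on scarce genes. Nkg7 had 224 reads, Cd79b 162 and Ighm 1637 in all 17 libraries together, and only 3 of the 11 listed genes were tested. Without the 2 farthest libraries r was 0.817, in the 13 libraries with lower title numbers 0.886, and with group means removed 0.771. The summed level of the 11 lymphocyte genes was 4.81 to 12.6 CPM in T3 and 6.95 to 16.8 CPM in T5, and 3 of 3 tested were higher in T5 than in T3 in the fit, with a median of 1.05 and 0 called. The mean of 7 platelet genes gave r = 0.557 (permutation p = 0.0217, adjusted 0.0759) and rho = 0.525 (permutation p = 0.0322, adjusted 0.0903), and r was 0.728 without the 2 farthest libraries and 0.579 in the 13. Border macrophage genes gave r = 0.499 (permutation p = 0.0426, adjusted 0.119) and rho = 0.527 (permutation p = 0.0317, adjusted 0.0903), with r = 0.804 in the 13. Neutrophil genes gave r = 0.244 (permutation p = 0.347) and rho = 0.184 (permutation p = 0.478), with r = 0.425 in the 13. Monocyte genes gave r = 0.214 (permutation p = 0.407) and rho = 0.164 (permutation p = 0.526), with r = 0.556 in the 13. Endothelial genes gave r = 0.038 (permutation p = 0.886) and rho = 0.069 (permutation p = 0.795), but r = 0.605 in the 13. The epithelial genes of the plexus gave r = -0.052 (permutation p = 0.84) and rho = -0.054 (permutation p = 0.841), with r = -0.255 in the 13. Oligodendrocyte genes gave r = 0.333 (permutation p = 0.19) and rho = 0.328 (permutation p = 0.197), with r = 0.553 in the 13. Astrocyte genes gave r = 0.400 (permutation p = 0.109) and rho = 0.426 (permutation p = 0.0871), with r = 0.627 in the 13. Neuron genes gave r = 0.176 (permutation p = 0.504) and rho = 0.176 (permutation p = 0.501), with r = 0.530 in the 13. The log2 library total gave r = -0.267 (permutation p = 0.299). The part of blood content in the globin levels was not tested.

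The tissue carried its epithelial markers. The 12 genes of the choroid plexus epithelium, Ttr among them, summed to 122492 to 204538 CPM over the libraries, and the list had 0 genes called in each comparison.

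Tested genes were ranked by Pearson correlation of log2 CPM with the summed globins over the 17 libraries. The ranking left out the members and genes with predicted or clone-type names. It began with Ube2l6 (r = 0.963), which encodes a conjugating enzyme for ubiquitin and ISG15. Ube2l6 was 17.5 CPM in T3, 20.998 in T1, 21.8 in CTRL and 31.98 in T5 on average. The gap to the next gene of the ranking was wide, since Lyz2 (lysozyme of myeloid cells) had r = 0.842. Pf4 (platelet factor 4, also made by border macrophages) had r = 0.818. Cyba, Ssr2, Tmem159, Gng11, Tnfaip8l2, Rab13 and Bpgm followed with r of 0.785 to 0.814. For Alas2 the nearest were Ube2l6 (0.841) and Pf4 (0.8288), followed among others by Rnase4, Tnfaip8l2, Cyba, C1qa, Rac2, Fndc10 and C1qb (0.785 to 0.821). The ranking for Alas2 left out the same genes. These correlations are the highest among the ranked genes, share the libraries and their depth, and are a description.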

How the data were processed

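RNA was extracted from whole plexus and made into SMART-Seq v4 libraries, per the labels' protocols; cDNA is primed at poly(A) and amplified by PCR. The authors deposited raw read counts per Ensembl gene. GRCm38, with featureCounts 1.6.4, STAR 2.6.1b and Trimmomatic 0.39, is named in the submitters' processing notes; for annotation release, strand and multi-matching reads nothing is given in the sources used here. Symbols come from GENCODE M21 (55394 of 55487 identifiers found). The erythroid gene Ahsp was not matched. No per-sample column was left unused.

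The test was run in edgeR 4.0.16 under R 4.3.3 (TMM, filterByExpr by group, robust quasi-likelihood fit over all 17 libraries, Benjamini-Hochberg, threshold 0.05). The SE is the absolute log2 fold change over the square root of F and is approximate. CPM divides counts by the library total; RPKM divides this by the length of the joined exons. Correlations and SDs of log2 CPM within groups used log2 CPM on TMM-scaled library totals (prior count 2), unlike the plain CPM given as levels. Permutation tests of correlations were two-sided with 100000 draws. DESeq2 1.42.0 and limma 3.58.1 were alternatives. The fit was tested on simulated counts with a dispersion (spread beyond counting error) of 0.05. The common dispersion of these data was 0.141, so that check does not show the power for the members. The members, gene lists and tests were chosen with earlier results of these data known. Named genes were the members, all heme synthesis enzymes, up to 4 tested genes per other list with the smallest p, called genes, and the 10 genes most like the globins or Alas2; Hbb-bh0, Hba-x and other scarce globins, Gata1, Hemgn, Klf1, Ank1, Sptb and Tfrc were added after their values were seen. ATATAA was added after the promoters were seen. Single values of some genes on the lists are not reported here.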

Additional observations from a re-analysis of the deposited data

Results flagged for a closer look

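Alas2 in T3 replicate 4 was 40.2 CPM, whereas the other T3 libraries were 14.5 to 15.5 CPM, a gap that takes nearly the whole range of the group. It was the 1 case among 20 combinations of a member and a group that were examined for a library apart. Chance gives about 1 in 20 for independent combinations, but the members varied together, so these are not independent. T3 replicate 4 is the T3 library with a title number of 28 or above, and its oligodendrocyte markers summed to 1138 CPM against 164 to 239 CPM in the other T3 libraries. Other lists also stood apart in it. Sums were 502 CPM against 22.7 to 43.2 for neurons and 201 against 16.3 to 23.3 for monocytes. They were 225 against 61.7 to 80.7 for border macrophages, 385 against 143 to 160 for endothelium and 33.3 against 16.7 to 18.4 for platelets. Epithelial genes were lower, 131022 against 174020 to 179324 CPM. The part of these cells in the Alas2 level was not tested.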

How the results depend on the processing

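Each of 30 log2 fold changes of the members was recomputed under 28 alternatives. Of these 840 values, 815 kept their direction and side of the threshold, 7 passed the threshold, 0 lost it, and 18 changed sign, all 18 in T1 against CTRL. No paired analysis was possible because the replicate numbers only follow the order of the samples. In T1 against CTRL, Alas2 became 0.084 with library totals only and 0.016 with at least 10 reads in every library, and Hbb-bs 0.0013 with a term for title numbers of 28 and above. Without those 4 libraries Hba-a1 was 0.32, Hba-a2 0.34, Hbb-bs 0.55, Hbb-bt 0.62 and Alas2 0.32. Leaving out 1 library at a time gave -0.36 to 0.070 for Hba-a1, -0.43 to 0.051 for Hba-a2, -0.62 to -0.0034 for Hbb-bs, -0.51 to 0.098 for Hbb-bt and -0.23 to 0.19 for Alas2; the sign of at least 1 member turned without CTRL replicate 2, 4 or 5 or T1 replicate 2 or 4. DESeq2 passed T5 against T3 for Hba-a2 (1.38), Hbb-bs (1.49) and Hbb-bt (1.39) and T5 against T1 for Hbb-bs (1.01), which voom also passed (1.15). Leaving out 1 library gave 0.79 to 1.41 for Hbb-bs and 0.63 to 1.25 for Hbb-bt in T5 against T1. Both were called without T1 replicate 1, where 3169 of 17372 tested genes were called.

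Counts of called genes moved as well. In T5 against T1 the count went from 677 to 1335 with library totals only, 2158 with DESeq2, 3730 with voom, 355 with no filter, 1333 with at least 10 reads, 42 with only those groups, 0 with the title number term, 0 without those libraries, 2190 with the brain covariate and 0 to 3169 leaving out 1 library (0 without T1 replicate 2, T1 replicate 3 or T5 replicate 3, 3169 without T1 replicate 1). DESeq2 called 826 genes in T1 against CTRL, 2 in T3 against CTRL, 16 in T5 against CTRL, 24 in T3 against T1 and 84 in T5 against T3, and voom 4084 in T1 against CTRL and 4065 in T3 against T1. Leaving out 1 library gave 0 to 2203 calls in T1 against CTRL, 0 to 3 in T3 against T1 and 0 to 1 in T5 against T3. The cause was not tested. With the length of the coding transcript, chosen after seeing the data, the alpha to beta ratio was 0.313 to 0.546.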

Other observations

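Genes that supply mitochondria for heme and iron-sulfur clusters had lower fitted values in T1 than in CTRL for 8 of 11 tested, with a median log2 fold change of -0.19 and 0 called. Slc25a39, a carrier of the inner mitochondrial membrane, was 744 ± 33.9 CPM in CTRL (SD, n = 5) and 555 ± 5.1 CPM in T1 (n = 4), a log2 fold change of -0.54 ± 0.15 (adjusted p = 0.135, edgeR). Glrx5, which acts in iron-sulfur cluster transfer, was 126 ± 12.5 CPM in CTRL and 93.9 ± 11.6 CPM in T1, a change of -0.52 ± 0.17 (adjusted p = 0.146, edgeR). In T5 against T1, 9 of 11 had higher fitted values, with a median of 0.25 and 0 called. Of the T1 libraries, 3 carry the higher title numbers, and their part in these values was not tested.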
